A study of Mus musculus with 12 samples.

Results

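A set of 10 dimerizing transcription factor genes of the AP-1 and ATF families was followed in RNA from mouse peritoneal macrophages: Fos, Fosb, Fosl1, Fosl2, Jun, Junb, Jund, Atf3, Batf and Maff. They were chosen by gene symbol, and each matched 1 of the 53465 genes in the deposited table. AP-1 is a dimer of basic leucine zipper (bZIP) proteins that binds short DNA sites. JUN proteins can pair with each other or with FOS proteins, while FOS proteins need a JUN partner. FOS and JUN are classical immediate early genes, turned on within minutes of a stimulus and switched off again soon after. In macrophages, bacterial lipopolysaccharide (LPS) signals through TLR4 to the MAP kinases, which act on these genes and on their proteins. ATF3 is known as a stress-induced brake on inflammatory transcription, BATF pairs with JUN proteins at sites shared with IRF4 or IRF8, and MAFF is a small MAF protein with no activation domain of its own.

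The study asked how the basic helix-loop-helix repressor BHLHE40 shapes the macrophage response to inflammation. There were 4 groups of 3 libraries, compared here: peritoneal macrophages labelled Lyz2Cre-BHLHE40-Fl with LPS, the same genotype label as control, Lyz2Cre with LPS, and Lyz2Cre as control. All mice were C57BL/6 of postnatal week 10, and the genotype labels of all groups carry Lyz2Cre, a Cre recombinase driven by the lysozyme 2 gene of macrophages and neutrophils. The sources used here give neither the dose and time of LPS nor whether it was given to mice or to cells. Nor do they say whether replicates came from separate mice, so the p-values below measure only the spread between these libraries.

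Values are the deposited ones, whole reads divided by 1 factor per library, and the 12 libraries held between 20489417 and 29354869 reads. The targeted gene, Bhlhe40, read 7893 ± 239 in BHLHE40-Fl-labelled controls and 4976 ± 295 in Lyz2Cre controls (SD, n = 3 each), a log2 difference of 0.67 with a limma adjusted p of 6.32e-06. With LPS it read 2232 ± 244 in BHLHE40-Fl-labelled libraries and 2467 ± 226 in Lyz2Cre libraries, a log2 difference of −0.15 (limma adjusted p = 0.201) that came to 0.14 under equal library totals and to 0.0035 under quantile normalization. The label is therefore used here as a label only. Macrophage genes were abundant in all groups: Adgre1, which encodes F4/80, read 12480 ± 1206 in BHLHE40-Fl-labelled LPS libraries and 38486 ± 1275 in Lyz2Cre LPS libraries, and 5635 ± 245 in BHLHE40-Fl-labelled controls and 30456 ± 725 in Lyz2Cre controls. In bulk RNA such as this, fewer cells of a type and less RNA per cell cannot be told apart. Mitochondrial genes took 0.756% to 1.92% of the reads in BHLHE40-Fl-labelled LPS libraries and 0.486% to 0.600% in Lyz2Cre LPS libraries, and 1.205% to 1.627% in BHLHE40-Fl-labelled controls and 0.985% to 1.37% in Lyz2Cre controls. With LPS the libraries of the labels did not overlap in this share, and its part in the differences between labels and in the LPS changes was not tested. Within its group, BHLHE40-Fl-labelled LPS replicate 1 stood apart at 0.756%, and calls of the 10 genes that change without it are given both ways.

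Levels were compared between genes per kilobase of annotated exon. Atf3 ranked highest of the 10 in all groups, at 9295 ± 833 per kb in BHLHE40-Fl-labelled LPS libraries, 7021 ± 220 in their controls, 13192 ± 758 in Lyz2Cre LPS libraries and 4922 ± 222 in their controls (SD, n = 3 each). That placed it above 99.4% to 99.6% of the 20386 genes ranked in each group. With LPS, Junb ranked next at 6679 ± 761 per kb under the BHLHE40-Fl label and 7729 ± 293 under Lyz2Cre, and then Jund at 2054 ± 474 and 1750 ± 92.7 per kb. In controls Jun ranked next, at 1567 ± 6.44 per kb under the BHLHE40-Fl label and 1143 ± 88.0 under Lyz2Cre. In Lyz2Cre controls Jund followed at 897 ± 42.7 and Junb at 825 ± 115 per kb, which lie within their spread. Fosb and Fosl1 were near the floor, with 1 to 5 reads for Fosb and 3 to 32 reads for Fosl1 in any library, so their changes carry wide intervals. All 10 genes passed the filter on low values, a value of 1 or more in 3 libraries.

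**Figure D1:**
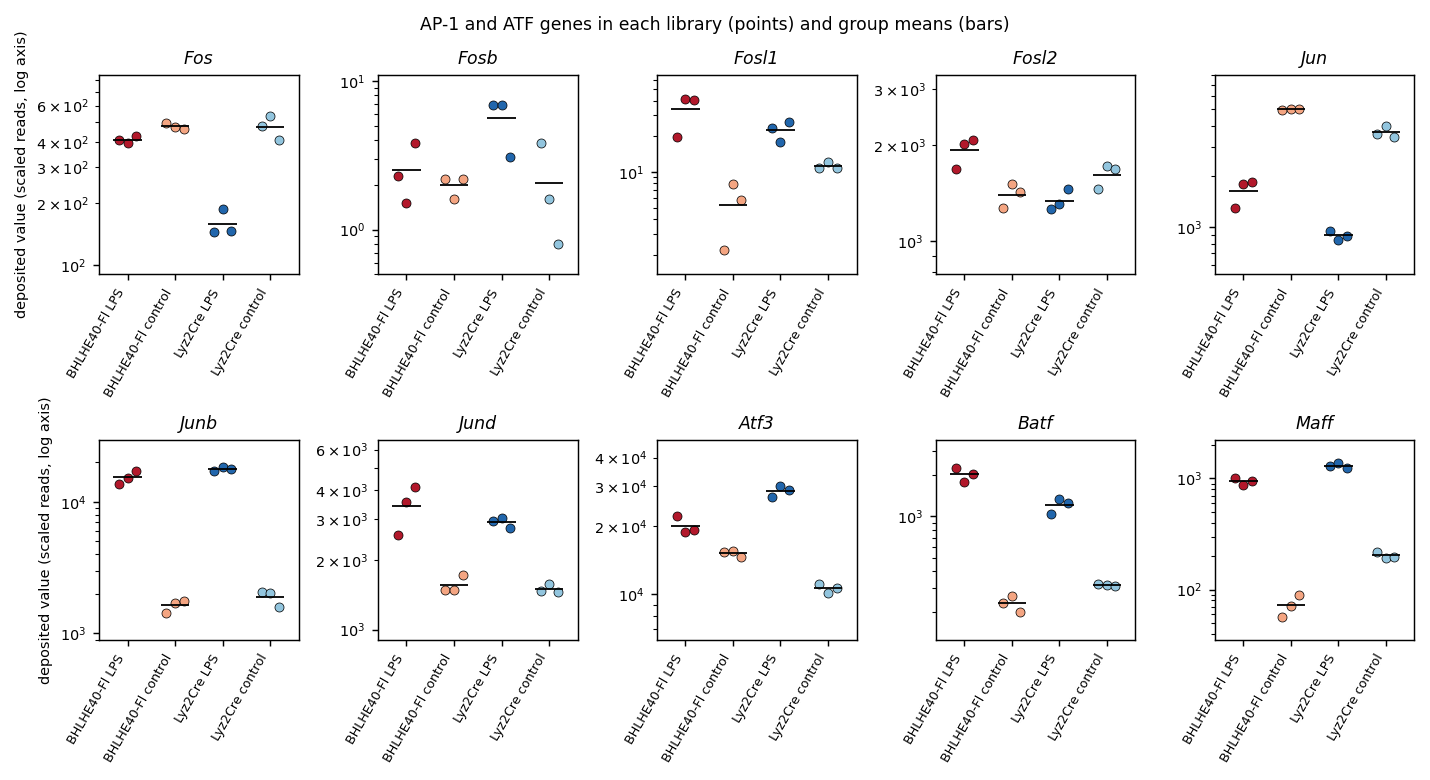
Deposited values (scaled reads, logarithmic axis) of the 10 genes in the 12 libraries, as points, with the mean of each group of 3 as a bar. Junb, Batf and Maff were higher and Jun lower in all LPS libraries than in all controls, and Fos was below 200 only in the 3 Lyz2Cre LPS libraries.

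Per kb of annotated exon, the Jun family exchanged its leading member with LPS. JUN is the strongly activating member of the family, and JUNB is a weaker activator that can hold JUN back. Junb read 13711.5, 15196.6 and 17198.8 in BHLHE40-Fl-labelled LPS libraries, against 1438.7, 1709.2 and 1752.2 in their controls. In Lyz2Cre libraries it read 17123.2, 18472.0 and 17758.4 with LPS, against 2058.5, 2041.1 and 1593.7 in controls. The LPS and control libraries were far apart under both labels, by 9.41-fold and 9.37-fold in the ratio of means. On the log2 scale the rise was 3.23 ± 0.10 (SE, limma adjusted p = 1.44e-14) under the BHLHE40-Fl label and 3.24 ± 0.10 (limma adjusted p = 2.2e-14) under Lyz2Cre. The difference between these rises was −0.00, with a 95% interval of −0.31 to 0.30.

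Jun moved the other way. It read 1302.6, 1795.5 and 1842.1 in BHLHE40-Fl-labelled LPS libraries, against 4977.8, 5018.8 and 4996.5 in their controls. The Lyz2Cre libraries read 949.0, 841.4 and 888.1 with LPS, against 3547.3, 3959.7 and 3423.6 in controls. No LPS library reached a control. Jun fell by 1.62 ± 0.10 log2 units (limma adjusted p = 2.94e-10) under the BHLHE40-Fl label and by 2.03 ± 0.10 (limma adjusted p = 1.48e-11) under Lyz2Cre, which is 3.03-fold and 4.08-fold lower in the means.

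Jund, a family member usually described as steady rather than inducible, also rose. It read 2573.5, 3569.5 and 4135.0 in BHLHE40-Fl-labelled LPS libraries, against 1486.0, 1483.5 and 1730.5 in their controls. In Lyz2Cre libraries the values were 2961.1, 3046.9 and 2746.7 with LPS, against 1461.9, 1578.2 and 1448.8 in controls. Jund rose by 1.10 ± 0.12 log2 units (limma adjusted p = 5.06e-07) and by 0.96 ± 0.12 (limma adjusted p = 2.87e-06) under these labels. With library totals made equal, the rise under Lyz2Cre was 0.23 and no longer called (limma adjusted p = 0.119), against a median of all genes that then stood at −0.58.

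Shares within a library do not depend on the scaling between libraries. Junb made up 72.4% ± 2.52 of the Jun-family RNA per kb in BHLHE40-Fl-labelled LPS libraries and 22.0% ± 1.51 in their controls, and 79.2% ± 0.919 in Lyz2Cre LPS libraries and 28.7% ± 2.37 in their controls (SD, n = 3 each). Jun itself made up 5.57% ± 0.448 with LPS and 48.8% ± 2.10 in controls under the BHLHE40-Fl label. Under Lyz2Cre its share was 2.87% ± 0.260 with LPS and 39.9% ± 1.16 in controls. The ratio of Junb to Jun per kb was thus 13.1 ± 1.43 with LPS and 0.453 ± 0.0458 in controls under the BHLHE40-Fl label, and 27.7 ± 2.71 with LPS and 0.721 ± 0.0798 in controls under Lyz2Cre. These shares and ratios depend on the gene length used. With the longest transcript as length, Lyz2Cre controls held Jun at 1143 ± 88.0 and Junb at 1049 ± 146 per kb. The lead of Jun in those controls then lay within the spread.

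**Figure D2:**
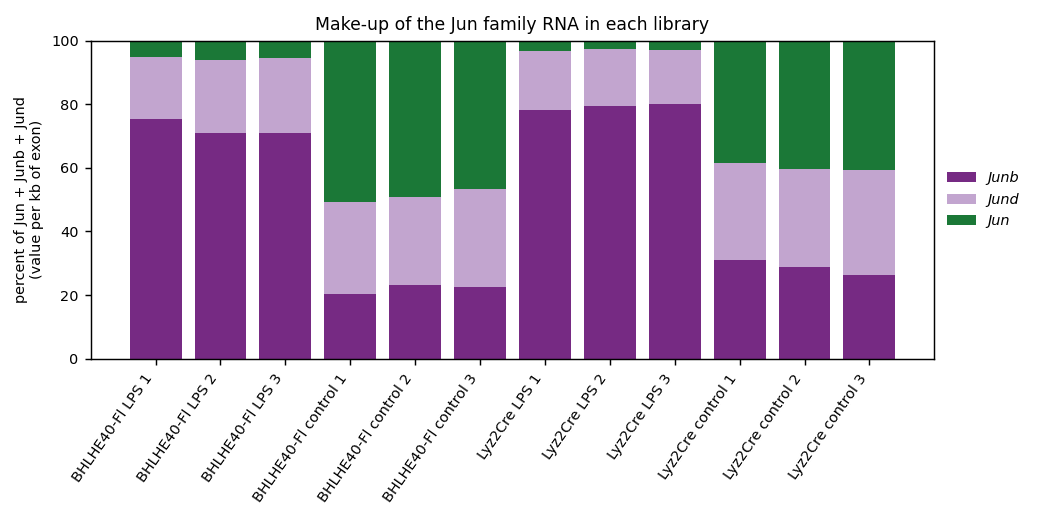
Percent of the summed value per kb of Junb, Jund and Jun that each gene made up, with 1 bar per library. Junb holds 71.0% to 80.0% of the family in the 6 LPS libraries, and Jun holds 38.6% to 50.7% in the 6 controls.

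The upstream windows of these neighbours in function differ in their letters. The windows are the 250 bases before the annotated start in RefSeq (build GRCm38.p6), and capitals mark matches on either strand to TGACTCA (the AP-1 consensus), TGACGTCA (the CRE consensus), its 6-base core TGACGT, TGACATCA (the JUN/ATF type site known from the Jun promoter) or the E-box CACGTG bound by BHLHE40. The core is also counted where it lies within the longer CRE. The Jun window, chr4:95052223-95052472 on the minus strand, held TGACATCA 45 to 38 bases before the start. The Junb window, chr8:84978749-84978998 on the minus strand, held none of the 5, which says only that these letters are not in this window.
Jun: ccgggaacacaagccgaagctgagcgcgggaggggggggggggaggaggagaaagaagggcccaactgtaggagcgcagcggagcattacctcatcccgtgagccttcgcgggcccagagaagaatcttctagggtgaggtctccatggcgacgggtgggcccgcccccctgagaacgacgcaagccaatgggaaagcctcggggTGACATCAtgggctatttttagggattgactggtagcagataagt
Junb: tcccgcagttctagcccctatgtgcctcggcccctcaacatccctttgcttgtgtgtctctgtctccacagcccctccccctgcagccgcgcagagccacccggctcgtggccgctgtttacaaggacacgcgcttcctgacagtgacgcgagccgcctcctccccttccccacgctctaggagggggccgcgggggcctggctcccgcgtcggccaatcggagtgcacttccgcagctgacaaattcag

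Across all 32851 such windows, TGACATCA was found in 2.93%, TGACGT in 6.47%, TGACGTCA in 1.55%, CACGTG in 6.02% and TGACTCA in 4.46%. A total of 9 of the 10 genes had a window in the table, with 11 windows among them, and none held TGACTCA. The windows of Jund, Fosl2 and Fosb held none of the 5 motifs. The Jund window, chr8:70697489-70697738 on the plus strand, does not reach the Jund start in GENCODE M21, at 70698949. The windows of Fosl2 and Fosb overlap an annotated exon of their gene. Here too the result says only that these letters are not in these windows.

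In the Fos family, Fos and Fosl2 were higher with LPS under the BHLHE40-Fl label than under Lyz2Cre. FOS is the founding member, FOSL2 (FRA-2) a longer-lived relative. Fos read 409.6, 394.1 and 425.8 in BHLHE40-Fl-labelled LPS libraries, against 492.9, 470.5 and 462.3 in their controls. In Lyz2Cre libraries it read 144.5, 187.6 and 146.2 with LPS, against 479.6, 531.7 and 406.2 in controls. The controls of both labels thus lay together, and only Lyz2Cre LPS libraries were far below them. Under the BHLHE40-Fl label the change of Fos was −0.21 ± 0.12 log2 units and was not called (limma adjusted p = 0.15), although no LPS library reached a control. With those 2 groups fitted alone the limma adjusted p was 0.0297, and under equal totals the change was −0.83 and called, or −0.27 relative to the median of all genes. Under Lyz2Cre Fos fell by 1.56 ± 0.12 log2 units (limma adjusted p = 3.2e-09), 2.96-fold.

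The Fos window, chr12:85473640-85473889 on the plus strand of GRCm38.p6, held the core TGACGT 66 to 61 bases before the start, shown in capitals. It is given because Fos is the member whose LPS change differed most in the positive direction between the labels among those called.
Fos: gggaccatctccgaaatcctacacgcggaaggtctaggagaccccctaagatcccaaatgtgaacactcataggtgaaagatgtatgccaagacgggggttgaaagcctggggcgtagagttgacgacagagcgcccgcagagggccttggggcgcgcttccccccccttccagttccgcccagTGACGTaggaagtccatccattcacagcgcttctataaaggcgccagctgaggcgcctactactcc

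Fosl2 read 1686.4, 2022.4 and 2081.3 in BHLHE40-Fl-labelled LPS libraries, against 1268.6, 1512.7 and 1426.9 in their controls, and the groups did not overlap. Under Lyz2Cre it read 1263.1, 1309.0 and 1457.3 with LPS, against 1456.5, 1720.9 and 1681.6 in controls, and the groups touched. The change was a rise of 0.46 ± 0.10 on the log2 scale under the BHLHE40-Fl label (limma adjusted p = 0.000587), which turned to −0.16 under equal library totals, or 0.40 relative to the median of all genes there, and which quantile normalization left uncalled at 0.12 (limma adjusted p = 0.32). Under Lyz2Cre it was a fall of 0.27 ± 0.10, called only narrowly (limma adjusted p = 0.0269). That call was lost without Lyz2Cre control replicate 2 or 3 or Lyz2Cre LPS replicate 1 or 2, with limma adjusted p between 0.0771 and 0.106, and with the 2 groups fitted alone (0.0521).

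Fosl1 encodes FRA-1, a relative without a strong activation domain. It read 19.9, 41.4 and 40.1 in BHLHE40-Fl-labelled LPS libraries, against 2.2, 7.9 and 5.8 in their controls, and rose by 2.52 ± 0.42 log2 units (limma adjusted p = 6.96e-05). In Lyz2Cre libraries it read 23.6, 17.9 and 26.4 with LPS, against 10.8, 12.2 and 10.9 in controls, a difference of 0.93 ± 0.42 that was not called (limma adjusted p = 0.0833) and that was called with these 2 groups fitted alone (0.0236) or with a pseudocount of 5 (0.75, limma adjusted p = 0.0429). Of its 2033 exonic bases, 1163 overlap Ccdc85b on the other strand, which reached at most 64.0 in any library. The strand setting of the counting is not given, so reads of these genes cannot be told apart. Fosb, a short-lived early gene, lay between 0.8 and 6.9 in all libraries and was called in no comparison tested. Leaving out Lyz2Cre control replicate 1 or Lyz2Cre LPS replicate 3 made its LPS difference under Lyz2Cre called, at 1.55 and 1.49 (limma adjusted p = 0.0301 and 0.0396), as did a pseudocount of 5 (0.59, limma adjusted p = 0.0390).

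As a share of Fos-family RNA per kb, Fos made up 44.8% ± 3.37 in BHLHE40-Fl-labelled LPS libraries and 57.8% ± 3.06 in their controls, and 31.0% ± 4.08 in Lyz2Cre LPS libraries and 53.6% ± 3.99 in their controls (SD, n = 3 each). These shares too depend on the gene length used. With the longest transcript as length, Lyz2Cre controls held Fosl2 at 248 ± 21.8 and Fos at 224 ± 29.9 per kb. BHLHE40-Fl-labelled controls then held Fos at 225 ± 7.51 and Fosl2 at 215 ± 18.9 per kb. Neither gene led beyond the spread in controls with that length. The whole Fos family came to 4.25% ± 0.290 of the whole Jun family with LPS and 10.9% ± 0.503 in controls under the BHLHE40-Fl label. Under Lyz2Cre it came to 2.24% ± 0.0985 with LPS and 13.1% ± 0.492 in controls. FOS-family RNA was thus a small part beside JUN-family RNA in all 4 groups, and a smaller part with LPS.

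Atf3 rose under both labels on the deposited scale, but for the BHLHE40-Fl label the sign turned under equal library totals and quantile normalization. With edgeR and DESeq2, each with its own scaling, the rise under that label stayed called. It read 22078.2, 18767.7 and 19220.0 in BHLHE40-Fl-labelled LPS libraries, against 15274.2, 15503.2 and 14591.0 in their controls. In Lyz2Cre libraries the values were 26674.8, 29913.5 and 28657.9 with LPS, against 11041.6, 10091.8 and 10671.0 in controls. The LPS and control libraries did not overlap under either label. Under the BHLHE40-Fl label the change was 0.40 ± 0.08 log2 units (limma adjusted p = 0.000199), which became −0.22 with equal library totals and −0.61 with quantile normalization. Under Lyz2Cre the rise was 1.42 ± 0.08 (limma adjusted p = 2.1e-11), 2.68-fold in the means. That rise shrank to 0.69 with equal library totals and to 0.28 with quantile normalization, or 1.27 and 0.37 relative to the median of all genes. Relative to the median of all genes, the BHLHE40-Fl values under these scalings stood at 0.34 and −0.50. The direction of Atf3 under the BHLHE40-Fl label therefore rests on the scaling.

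Batf and Maff rose under both labels. Batf read 2259.9, 1795.5 and 2029.9 in BHLHE40-Fl-labelled LPS libraries, against 234.1, 262.1 and 202.2 in their controls. The Lyz2Cre libraries read 1039.4, 1346.2 and 1252.0 with LPS, against 319.5, 315.3 and 310.7 in controls. The rise was 3.12 ± 0.11 log2 units (limma adjusted p = 7.75e-14), 8.71-fold, under the BHLHE40-Fl label and 1.93 ± 0.11 (limma adjusted p = 8.68e-11), 3.85-fold, under Lyz2Cre. Batf lies 209.4 kb from Fos on mouse chromosome 12, and the 2 genes moved in opposite directions under Lyz2Cre.

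Maff read 1010.0, 880.1 and 954.2 in BHLHE40-Fl-labelled LPS libraries, against 56.7, 71.1 and 89.9 in their controls. In Lyz2Cre libraries it read 1289.5, 1391.7 and 1238.0 with LPS, against 217.9, 193.7 and 197.6 in controls. Maff rose by 3.71 ± 0.13 log2 units (limma adjusted p = 5.86e-14) under the BHLHE40-Fl label and by 2.68 ± 0.13 (limma adjusted p = 7.74e-12) under Lyz2Cre, 13.1-fold and 6.43-fold in the means. Both the LPS and the control libraries read lower under the BHLHE40-Fl label than under Lyz2Cre.

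Sites with the CRE core were also found beside Atf3, Batf and Maff, and these are shown because the 3 genes rose with LPS in Lyz2Cre libraries. Junb and Jund also rose there without the core in their windows, and Fos, with the core, fell there. A link between the core and the LPS change was not tested. For Atf3 (window chr1:191183334-191183583, minus strand, core 8 to 3 bases before the start) and Batf (window chr12:85686470-85686719, plus strand, core 98 to 93 bases before the start) another annotated exon of the gene overlaps the window, so only 30 bases are given. Maff has 3 windows; the one at chr15:79347270-79347519 on the plus strand held the whole CRE 29 to 22 bases before the start and an E-box 191 to 186 bases before it.
Atf3: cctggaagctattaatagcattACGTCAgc
Batf: ctaacttgtTGACGTttccgcccatgtgac
Maff: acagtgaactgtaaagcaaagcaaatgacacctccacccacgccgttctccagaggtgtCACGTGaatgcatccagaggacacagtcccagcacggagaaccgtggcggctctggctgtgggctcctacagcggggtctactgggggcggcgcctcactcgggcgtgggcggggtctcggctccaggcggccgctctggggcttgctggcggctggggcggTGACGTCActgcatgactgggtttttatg

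Counted together, 8 of the 10 genes were called with LPS under the BHLHE40-Fl label, 7 higher and 1 lower, where 50.5% of the 20419 genes tested were called, 24.9% higher and 25.6% lower. Under Lyz2Cre 8 were called, 5 higher and 3 lower, where 48.9% of genes were called, 25% higher and 23.9% lower. The LPS and control libraries did not overlap for 9 of the 10 under the BHLHE40-Fl label, against 55.6% of all genes, and for 8 under Lyz2Cre, against 54.5%. Under equal library totals the counts were 5 higher and 3 lower under the BHLHE40-Fl label, with 12.8% and 46.8% of all genes, and 4 higher and 3 lower under Lyz2Cre, with 11.7% and 46.5%. That scaling moved the median of all genes to −0.56 under the BHLHE40-Fl label and to −0.58 under Lyz2Cre. Relative to it, the 10 genes spanned −1.68 for Jun to 3.66 for Maff under the BHLHE40-Fl label and −2.18 for Jun to 3.09 for Junb under Lyz2Cre.

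**Figure D3:**
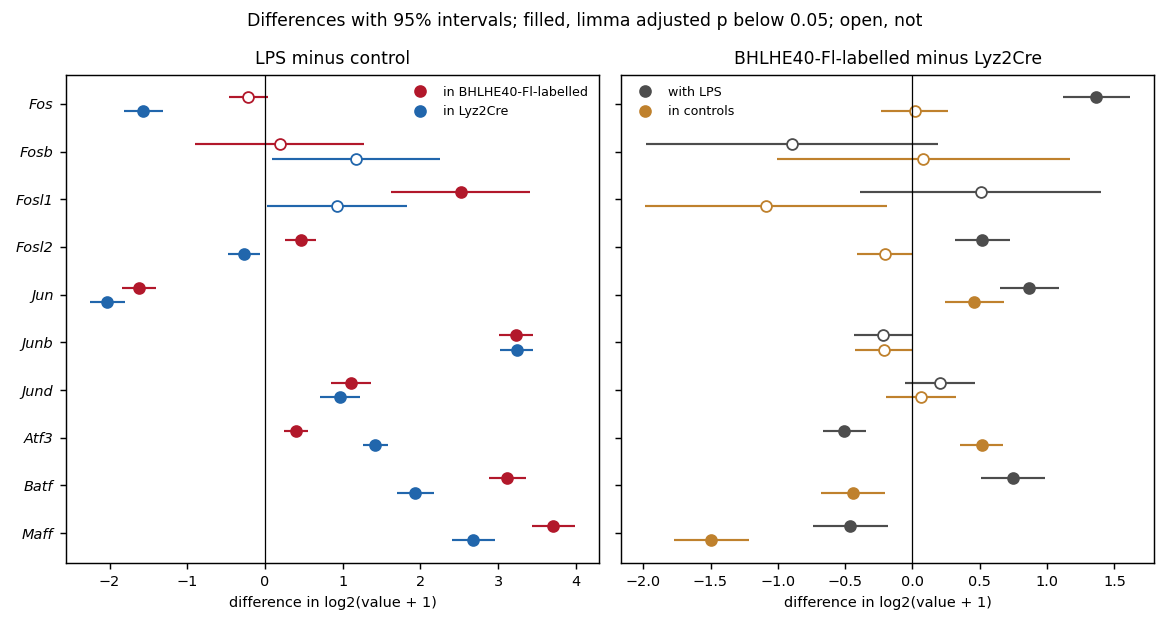
Differences in log2(value + 1) with 95% intervals, for LPS minus control (left) and BHLHE40-Fl-labelled minus Lyz2Cre (right). Filled points have a limma adjusted p below 0.05. Fos, Atf3, Batf, Maff and Fosl2 have LPS changes that differ between the labels; that of Atf3 under the BHLHE40-Fl label turns negative under equal totals and quantile normalization, and that of Fosl2 under equal totals.

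The LPS changes were then compared between the labels directly, as the interaction of label and treatment. All these comparisons draw on the same 12 libraries. Of the 10 genes, 5 were called, where 18.8% of all genes tested were. Fos (1.35 ± 0.17, limma adjusted p = 1.28e-05), Batf (1.19 ± 0.16, 3.11e-05), Maff (1.03 ± 0.19, 0.000597) and Fosl2 (0.73 ± 0.14, 0.000803) moved further up, or less far down, with LPS under the BHLHE40-Fl label. Atf3 rose less there, with an interaction of −1.02 ± 0.11 (limma adjusted p = 1.7e-06). All 5 kept their direction and call under the alternatives tried. Of the genes tested, 9.52% had a positive and 9.31% a negative interaction that was called; under equal totals 5 members were positive and 1 negative, with 12.6% and 7.07% of all genes. The interaction of Jun was 0.41 and not called (limma adjusted p = 0.0648), and without BHLHE40-Fl-labelled LPS replicate 1 it was 0.57 and called (limma adjusted p = 0.000606); equal totals, edgeR and DESeq2 also called it. Fosl1 gave 1.59 (limma adjusted p = 0.0781), with 1.92 without that library (limma adjusted p = 0.0342) and 1.90 without BHLHE40-Fl-labelled control replicate 2 (limma adjusted p = 0.0412).

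The labels were also compared within each treatment. With LPS, 6 of the 10 genes were called, where 37.4% of all genes were, and 6 did not overlap, against 45.9% of all genes. The 6 were 4 higher and 2 lower, with 17.7% and 19.8% of all genes, and under equal totals 5 higher and 1 lower, with 30.4% and 11%. Fos was 2.57-fold higher in BHLHE40-Fl-labelled than in Lyz2Cre LPS libraries (log2 1.37 ± 0.12, limma adjusted p = 6.14e-08), Jun 1.84-fold (0.87 ± 0.10, 3.26e-06), Batf 1.67-fold (0.74 ± 0.11, 4.43e-05) and Fosl2 1.44-fold (0.52 ± 0.10, 0.00031). Atf3 was lower, with a log2 difference of −0.51 ± 0.08 (limma adjusted p = 3.33e-05) and so was Maff, at −0.46 ± 0.13 (limma adjusted p = 0.00975), but quantile normalization ended the call of Atf3 (0.115) and both scalings that of Maff (0.348 under equal totals, 0.0533 under quantile normalization). Jund was not called (0.21, limma adjusted p = 0.214), and was called without BHLHE40-Fl-labelled LPS replicate 1 (0.40, limma adjusted p = 0.00178), under equal totals (0.49, 0.00376) and under quantile normalization (0.34, 0.0370). Junb was not called (−0.22, limma adjusted p = 0.116, with a 95% interval of −0.43 to 0.00), and was called without BHLHE40-Fl-labelled LPS replicate 3 (−0.30, limma adjusted p = 0.0472).

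In controls 4 of the 10 genes were called, where 31.6% of all genes were, and 5 did not overlap, against 41.3%. The 4 were 2 higher and 2 lower, with 15% and 16.6% of all genes, and under equal totals 2 higher and 1 lower, with 25% and 12.4%. Atf3 was 1.43-fold higher in BHLHE40-Fl-labelled than in Lyz2Cre controls (log2 0.51 ± 0.08, limma adjusted p = 3.05e-05) and Jun 1.37-fold higher (0.46 ± 0.10, 0.00221). Maff was lower, with a log2 difference of −1.49 ± 0.13 (limma adjusted p = 6.33e-08) and so was Batf, at −0.44 ± 0.11 (0.00533), where the call of Batf was lost under equal totals (0.0745). Fos was not called (log2 difference 0.02, with a 95% interval of −0.23 to 0.27). Fosl1 differed by −1.09 ± 0.42 without being called (limma adjusted p = 0.0618). It was called without BHLHE40-Fl-labelled control replicate 2 (0.0292), under quantile normalization (−1.35, 0.0198) and with a filter at 5 (0.0429). Junb was called without Lyz2Cre control replicate 3 (−0.33, limma adjusted p = 0.0124).

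Marker RNA of other cell types differed with the genotype label. Mesothelial markers summed to 1474 to 1809 in BHLHE40-Fl-labelled LPS libraries and 7.8 to 27.8 in Lyz2Cre LPS libraries, and to 2185 to 2963 in BHLHE40-Fl-labelled controls and 10.9 to 22.6 in Lyz2Cre controls. All 10 markers were higher under the BHLHE40-Fl label in both treatments, and Upk3b was at 0 in all Lyz2Cre libraries. Of 7 stromal markers, 6 were higher under the BHLHE40-Fl label in both treatments, and 1 was lower with LPS. They summed to 11165 to 14856 in BHLHE40-Fl-labelled LPS libraries and 4297 to 5688 in Lyz2Cre LPS libraries, and to 9579 to 12129 in BHLHE40-Fl-labelled controls and 1993 to 2155 in Lyz2Cre controls. Of 9 macrophage markers, 8 were lower under the BHLHE40-Fl label in both treatments, with sums of 87567 to 91413 in BHLHE40-Fl-labelled LPS libraries and 160823 to 168303 in Lyz2Cre LPS libraries, and of 63533 to 71734 in BHLHE40-Fl-labelled controls and 122299 to 135334 in Lyz2Cre controls. Of the neutrophil markers, Ly6g was at 0 in all libraries, and the 6 summed to 336 to 420 in BHLHE40-Fl-labelled LPS libraries and 15212 to 15446 in Lyz2Cre LPS libraries, and to 360 to 579 in BHLHE40-Fl-labelled controls and 23509 to 27806 in Lyz2Cre controls, nearly all of it Mmp8 under Lyz2Cre. Among the neutrophil markers Cxcr2 went the other way in controls, at 22.0 ± 6.25 under the BHLHE40-Fl label and 1.63 ± 1.42 under Lyz2Cre. The part of such cells in the differences between labels was not tested.

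The relatives of these genes were examined as lists, whose counts stand beside shares of all genes tested. With LPS these shares were 24.9% higher and 25.6% lower under the BHLHE40-Fl label (12.8% and 46.8% under equal totals), and 25% higher and 23.9% lower under Lyz2Cre (11.7% and 46.5%). Of 23 other AP-1, ATF and CREB genes, 15 rose and 4 fell with LPS under the BHLHE40-Fl label (8 and 13 under equal totals), and 11 rose and 7 fell under Lyz2Cre (4 and 14), with medians of 0.31 and 0.23 against −0.05 and 0.00 over all genes. Batf2, a BATF relative induced by interferon, rose by 6.08 and by 4.42 on the log2 scale under these labels, to 3452 ± 107 and 3533 ± 127. Batf3, best known from dendritic cells, rose by 1.54 to 167 ± 30.5 under the BHLHE40-Fl label and fell by 1.32 to 29.5 ± 4.02 under Lyz2Cre, an interaction of 2.87 (limma adjusted p = 2.69e-06). Jdp2, a JUN-binding repressor, rose by 1.76 and by 0.74, an interaction of 1.01 (limma adjusted p = 6.87e-06). Nfil3, a repressor that acts in the clock and in immune cells, rose by 2.02 under the BHLHE40-Fl label, with an interaction of 2.47 (limma adjusted p = 4.14e-10). Of the list, 13 of 23 had an interaction that was called, 9 positive and 4 negative, where 9.52% of all genes were positive and 9.31% negative. Without BHLHE40-Fl-labelled LPS replicate 1, 14 rose and 4 fell under that label, and 10 interactions were positive and 4 negative.

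Of 11 tested of 12 listed MAF, CNC and BACH genes, 4 rose and 5 fell with LPS under the BHLHE40-Fl label (2 and 6 under equal totals, 4 and 3 without BHLHE40-Fl-labelled LPS replicate 1), and 5 rose and 4 fell under Lyz2Cre (2 and 5). Mafk, like Maff a small MAF gene, rose by 3.08 and by 2.94 on the log2 scale, to 9172 ± 363 and 7580 ± 313. An interaction was called for 6 of these 11 genes, 4 positive and 2 negative, where 18.8% of all genes were called. Under equal totals 5 were called, 3 positive and 2 negative, and also without BHLHE40-Fl-labelled LPS replicate 1. Of 9 C/EBP and PAR bZIP genes, 2 rose and 4 fell under each label (2 and 5 under equal totals with the BHLHE40-Fl label, 1 and 5 under Lyz2Cre): Cebpb, a driver of inflammatory genes, rose by 1.85 and by 1.49, while Cebpa fell by 3.74 and fell by 3.39. Of these 9, 2 had an interaction that was called, 1 in each direction (4 under equal totals, 5 without BHLHE40-Fl-labelled LPS replicate 1).

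**Figure D4:**
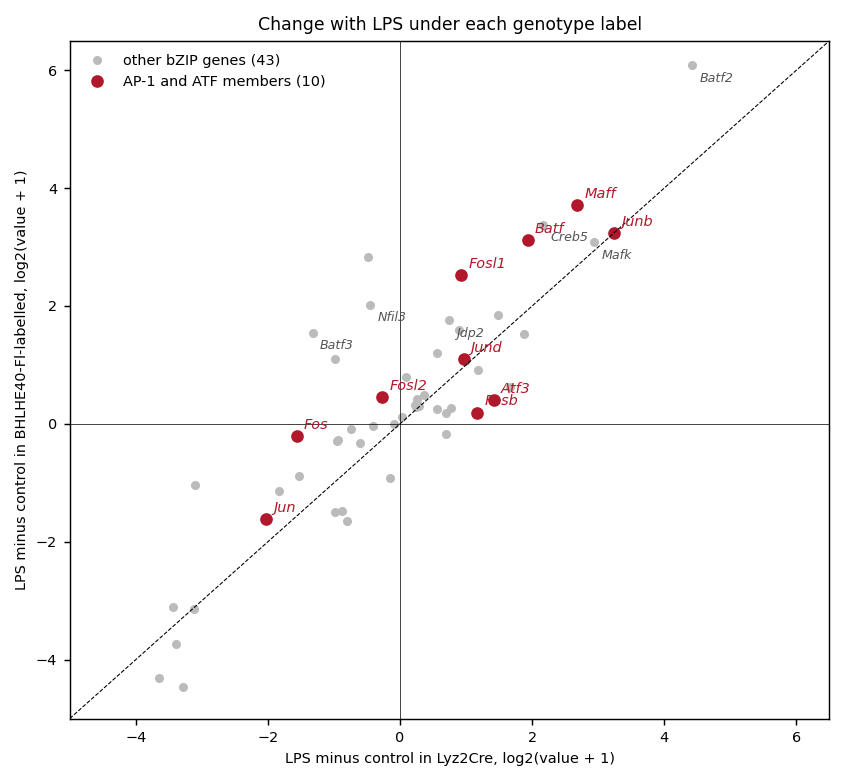
LPS minus control in BHLHE40-Fl-labelled libraries (vertical) against Lyz2Cre libraries (horizontal), in log2(value + 1), for the 10 genes (red) and the tested members of the 3 lists of other bZIP genes (grey); the dashed line marks equal change. Junb lies on the line. Fos, Fosl2, Batf and Maff lie above it and Atf3 below it, with interactions that were called. Fosl1, Jun and Jund also lie above it and Fosb below it, with interactions that were not called. The vertical values of Atf3, Fosl2 and Fosb turn negative under equal library totals.

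Upstream of AP-1, 13 of 34 MAP kinase cascade genes rose and 12 fell with LPS under the BHLHE40-Fl label (9 and 20 under equal totals), and 15 rose and 12 fell under Lyz2Cre (8 and 20). Map3k8, the TPL2 kinase that links TLR4 to ERK, rose by 1.66 and by 2.07 on the log2 scale, to 3725 ± 170 and 2963 ± 58.7. Mapkapk2, the p38 target kinase MK2, rose by 2.35 and by 2.89. The p38 alpha gene Mapk14 read 2172 ± 288 in BHLHE40-Fl-labelled LPS libraries and 1603 ± 147 in their controls, and 863 ± 72.5 in Lyz2Cre LPS libraries and 2143 ± 161 in their controls, an interaction of 1.75 (limma adjusted p = 8.95e-08). Its upstream kinase gene Map2k3 gave an interaction of 1.73 (limma adjusted p = 0.000288). Of the 34, 6 had an interaction that was called, 3 in each direction, which is near the 18.8% of all genes called.

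Of 9 tested of 11 listed genes of the SRF, TCF and MEF2 group, which control Fos and Jun, 1 rose and 5 fell with LPS under the BHLHE40-Fl label (0 and 8 under equal totals, 2 and 5 without BHLHE40-Fl-labelled LPS replicate 1), and 1 rose and 7 fell under Lyz2Cre (0 and 9). The median was −0.24 under the BHLHE40-Fl label and −1.003 under Lyz2Cre, against −0.05 and 0.00 over all genes. Mef2c read 691 ± 28.2 in BHLHE40-Fl-labelled LPS libraries and 763 ± 40.5 in their controls, and 636 ± 35.7 in Lyz2Cre LPS libraries and 1623 ± 117 in their controls, an interaction of 1.21 (limma adjusted p = 4.68e-07). Mkl1, a cofactor of SRF, fell by 2.27 and by 1.07. An interaction was called for 6 of these 9 genes, 4 positive and 2 negative, where 18.8% of all genes were called. Of 12 partner and co-regulator genes, 5 rose and 3 fell under the BHLHE40-Fl label (2 and 8 under equal totals), and 6 rose and 4 fell under Lyz2Cre (2 and 9). Of these 12, 3 had an interaction that was called, all positive. Irf8, a partner of BATF at composite sites, rose by 1.78 and by 2.06, to 13414 ± 215 and 27875 ± 1699. Irf4, from the same list, was not called under either label (0.04 and −0.004), at 107 ± 1.80 and 141 ± 19.6 with LPS.

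Of 20 genes often cited as AP-1 targets, 16 rose and 2 fell with LPS under the BHLHE40-Fl label (14 and 3 under equal totals, 15 and 3 without BHLHE40-Fl-labelled LPS replicate 1), and 14 rose and 1 fell under Lyz2Cre (14 and 6). Their medians were 2.78 and 2.09. Il6 rose by 13.66 and by 12.03, and Tnf by 9.48 and by 7.84. In controls 15 of the 20 were lower under the BHLHE40-Fl label and 2 higher, where 16.6% of all genes were lower and 15% higher. Among the lower was Mmp9, at 116 ± 2.49 in BHLHE40-Fl-labelled and 2066 ± 87.6 in Lyz2Cre controls. An interaction was called for 17 of the 20, 14 positive and 3 negative, where 18.8% of all genes were called. Of 19 early genes known to respond to cell handling and serum, 16 rose and 1 fell with LPS under the BHLHE40-Fl label (9 and 4 under equal totals, 15 and 1 without BHLHE40-Fl-labelled LPS replicate 1), and 13 rose and 1 fell under Lyz2Cre (9 and 6). Egr1, an early gene often induced together with Fos, read 65.3 ± 13.1 in BHLHE40-Fl-labelled LPS libraries and 24.4 ± 3.51 in their controls, and 40.2 ± 11.2 in Lyz2Cre LPS libraries and 9.6 ± 3.84 in their controls. Of these 19 early genes, 11 had an interaction that was called, 8 positive and 3 negative.

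Across the 12 libraries, the patterns of the members were described by Pearson's r of log2(value + 1), with no test since the libraries share 4 group means. Junb followed Batf (r = 0.96), Maff (0.96) and Jund (0.95), and ran opposite to Jun (−0.94). Jun ran with Fos (0.85) and opposite to Maff (−0.96). Among the 9283 other genes searched, those most like Junb were Kctd10, Nfkbib and Zbtb5 (r = 0.998 each), those most like Jun were Agap3 (0.996), Zfp36l2 (0.994) and Lfng (0.993), and those most like Maff were Pla1a (0.996), Src (0.996) and Cxcl2 (0.996). Batf was most like Asb13 (0.995), Slamf9 (0.994) and Slc25a17 (0.993). Atf3 was most like Atp6v1h (0.990), Il10 (0.987) and Tmpo (0.987), and Fos was most like Tubb5 (0.979), Gart (0.977) and Smad3 (0.976).

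Some values could be shared with overlapping genes on the other strand: Jun with Junos (232 exonic bases, at most 273 in any library), Junb with Prdx2 (173 bases, at most 3437) and Jund with Gm11175 (877 bases, at most 21.5). In GENCODE M21 (mm10) Fos lies at chr12:85473890-85477273 with 4 exon blocks, Jun at chr4:95049034-95052222 and Jund at chr8:70698949-70700616 as single exons, Junb at chr8:84974484-84978718, Fosb at chr7:19302696-19310051, Fosl1 at chr19:5447547-5455946, Fosl2 at chr5:32135801-32157842, Atf3 at chr1:191170296-191218039, Batf at chr12:85686669-85709087 and Maff at chr15:79346621-79359076.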

How the data were processed

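Total RNA of the 12 samples was sequenced, per the labels' protocols. The submitters' processing notes name STAR, Cufflinks, Cuffdiff and mm10, with no role, order or version, while no source used here states the counter, annotation or strand setting. The authors deposited a signal. From its steps, each entry is a whole read number over a factor common to its library, kept to 1 decimal. With a tolerance of 0.06, at least 99.97% of them were whole multiples of 1 step per library, and between 20489417 and 29354869 reads per library were recovered. edgeR on these reads called 4714 genes higher and 5417 lower with LPS under the BHLHE40-Fl label, and 4369 and 5430 under Lyz2Cre.

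The 20419 genes that reached 1 in 3 or more libraries were fitted with limma 3.58.1 in R 4.3.3 on log2(value + 1), with 1 mean per group over all 12 libraries. Adjusted p-values are Benjamini-Hochberg values over all genes tested, called below 0.05. Changes on this scale understate those of low genes. Each fold divides 1 group mean by another. The fit had been planned for FPKM or similar values and was kept. It was tested on simulated data with far fewer changed genes than here, and none as low as Fosb or Fosl1. That test therefore does not cover the shares called here or these low genes. edgeR 4.0.16 and DESeq2 1.42.0, other pseudocounts, filters and scalings, and leaving out each replicate were alternatives. Levels per kb use annotated exon length in GENCODE M21. The text names all members, Bhlhe40 and some cell type markers. From each list it names some of the 4 called genes with the largest changes in a comparison, not always the largest. It also names single relatives with a known role beside a member, and the 3 most similar genes with a mean of at least 100. The members and lists were chosen with earlier results of these data known. Replicates differed by more than sampling noise. Same-numbered samples did not deviate together.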

Additional observations from a re-analysis of the deposited data

Results flagged for a closer look

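The LPS change differed between the genotype labels, by the interaction test of limma over all 20419 genes, for 5 of the 10 genes. A difference in LPS change is given as that under the BHLHE40-Fl label minus that under Lyz2Cre. Fos had the largest positive value among them, 1.35 (SE 0.17, limma adjusted p = 1.28e-05), with changes of −0.21 under the BHLHE40-Fl label and −1.56 under Lyz2Cre. Batf gave 1.19, with rises of 3.12 and 1.93. Maff gave 1.03, with rises of 3.71 and 2.68. Fosl2 gave 0.73, with changes of 0.46 and −0.27. Atf3 gave −1.02, with changes of 0.40 and 1.42. No explanation of these differences was tested. All 10 mesothelial and 6 of 7 stromal markers were called higher, and 8 of 9 macrophage markers lower, in BHLHE40-Fl-labelled libraries of both treatments. With LPS, 1 stromal marker was lower.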

How the results depend on the processing

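Over 50 member changes (10 genes in 5 comparisons) and 844 values under the alternatives, 785 kept direction and side of the threshold, 11 lost a call, 22 gained a call and 26 changed sign, and 27 changes kept both under all alternatives tried. The number of members called stayed within 1.5 times in all 5 comparisons under all alternatives. Sign changes were mostly of values near 0 that were not called. The called exceptions were Atf3 with LPS under the BHLHE40-Fl label (−0.22 under equal library totals, −0.61 under quantile normalization) and Fosl2 there (−0.16 under equal totals). Fosb there gave −0.24 under equal totals and −0.056 to 0.41 with a replicate left out. Between labels in controls, Fos gave −0.023 with edgeR, and Fosb gave −0.25 under quantile normalization, −0.13 with edgeR and −0.10 with DESeq2. Between labels with LPS, Junb gave 0.070 under equal totals and 0.075 under quantile normalization, and Bhlhe40 gave 0.14 under equal totals and 0.0035 under quantile normalization. The Junb interaction gave 0.11 and 0.15 under these scalings, 0.073 with edgeR and 0.012 with DESeq2. With a replicate left out, the difference in controls ranged from −0.088 to 0.11 for Fos, −0.24 to 0.46 for Fosb and −0.010 to 0.10 for Jund, and the interaction from −0.0930 to 0.12 for Junb and −0.0075 to 0.33 for Jund. The causes were not tested.

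The replicate block could not be taken as a pairing, since same-numbered samples correlated at −0.454 to 0.146. With the block, 8 members were called with LPS under each label, 6 between labels with LPS and 5 for the interaction. In controls 5 were called in place of 4, since Fosl2 gained a call (−0.21, limma adjusted p = 0.0445).

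With the longest transcript as length, 23 of 40 shares of the summed members moved by more than the replicate SD. Among lists, the C/EBP and PAR interaction count was 2, against 4 under equal totals, 4 with edgeR and 5 without BHLHE40-Fl-labelled LPS replicate 1, the last 3 chosen after seeing the data. Depth limits Fosb and Fosl1.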
